A study of Mus musculus with 96 samples.

Results

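CC037 is a mouse strain of the Collaborative Cross, a panel of inbred strains bred from several founder strains so that each carries its own fixed mosaic of founder genomes. Its members here are the 2 libraries whose strain label is CC037, of 96 samples of 42 strains, and they were chosen by that label alone. The strain itself was selected on results of the same contrast that is given here, so its counts and differences are a description. An adjusted p states only how large a difference was against the spread between libraries within strains, shared by all strains. It does not state how far CC037 lies from the spread of the strain means. Both libraries hold total RNA of cultured osteoblasts. Cells were released by enzymes from the calvaria (skull caps) of pups aged 3 to 5 days, grown for 48 hours and then differentiated for 10 days with added ascorbic acid and beta-glycerol phosphate, as were those of every other strain. CC037 was set against the mean of the 38 other strains represented by at least 2 libraries, each strain weighing equally. The labels name no genetic alteration, treatment, sex, litter or batch, and do not say whether the 2 CC037 samples came from separate pups, so the spread between them may be technical. Their sample titles carry consecutive numbers whose meaning the labels do not explain.

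Calvarial osteoblasts lay down a collagen matrix and mineralise it, under the control of the transcription factors Runx2 and Sp7. Such cultures start from a mixed digest and can also hold macrophages, which depend on signals through the receptor Csf1r and its ligands Csf1 and Il34. Osteoblasts secrete insulin-like growth factors and their binding proteins. Like most cells they display peptides on class I molecules of the major histocompatibility complex (MHC), whose genes, together with many antiviral genes, respond to interferons. Where inbred strains differ in sequence at a locus, neighbouring genes can also differ together from strain to strain.

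Levels are given as scaled TPM, which is the length-corrected TPM (transcript abundance as a share of the library) summed per gene and rescaled so that most genes match across libraries. A gene is called where the adjusted p from limma, corrected over all 39 strains and all genes together, was under 0.05. Differences are on the scale of log2(scaled TPM + 0.5), which understates the change of low genes. The depth in reads is unknown, since the values hold no counts. The 2 CC037 libraries were closer to each other than those of any of the 31 strains with exactly 2 libraries, at a distance (1 minus Pearson r over all tested genes) of 0.01182. The nearest library of another strain lay at 0.03012 from the first, a CC057 library, and at 0.02749 from the second, a CC005 library. In these libraries protein-coding genes held 28.7% and 30.6% of the TPM, and the small noncoding RNAs Rn7s and Rn7sk 55.95% and 54.02%. Both had Xist, the transcript of the silenced X chromosome, at 19.5 and 17.1 scaled TPM and the Y-linked Ddx3y at 0.0361 and 0.0303, a pattern shared by 41 of the 93 other libraries in 28 strains.

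Of 15760 genes tested, 2198 (13.9%) were called in CC037, 957 higher (6.07%) and 1241 lower (7.87%). CC037 ranked 15th of 39 strains by this count, in a range from 1133 genes in CC001 to 4756 in CC038. This rank is not on equal terms, since more libraries allow more calls. CC037 and CC001 had 2 libraries and CC038 had 4, and the most calls with 2 libraries were 4724, in CC030. The called genes differed by a median of 0.53 in absolute size on the log2 scale, 163 were at least 2-fold higher and 237 at least 2-fold lower. CC037 was the highest strain in 310 of the called genes and the lowest in 476. In 29 genes (0.184%) both CC037 libraries lay above every library of every other strain, and in 42 (0.266%) both lay below. With 1 library in place of 2, 796 to 899 genes were called. Of 95 genes named by rule, 35 lost their call without replicate 1 and 44 without replicate 2, and the smallest full-data adjusted p among those was 0.0021, for Mrc1. The split between higher and lower calls moved with the scaling. On the deposited TPM, where the median difference over all genes was -0.225 in place of -0.028, it was 244 higher and 2966 lower (7.6% of calls higher against 43.5%). With TPM rescaled over protein-coding genes, where that median was -0.115, it was 565 higher and 1917 lower (22.8%).

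**Figure D1:**
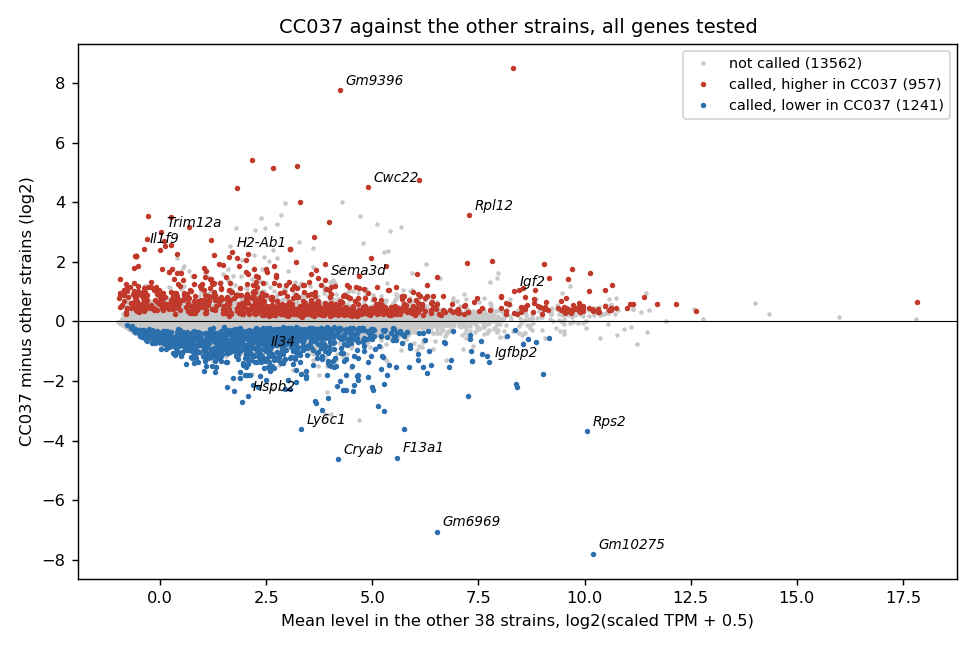
Difference of CC037 from the mean of the other 38 strains (log2, vertical axis) against the mean level in those strains (log2 of scaled TPM + 0.5, horizontal axis), 1 point per gene. Red points are the 957 genes called higher and blue points the 1241 called lower, and labelled genes are named in the text. Several of the most extreme points, such as Gm9396, Gm10275 and Gm6969, are genes with near-identical copies.

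The cultures carried the osteoblast programme. Runx2 stood at 16.0 and 13.7 scaled TPM in the CC037 libraries against a mean of 13.5 in the other strains. Sp7 stood at 41.9 and 44.4 against 34.2, and Alpl, the phosphatase that frees phosphate for mineral, at 200.2 and 210.6 against 183.2. None of these passed the test. Of the 21 osteoblast and mineralisation genes, 1 was called, where 13.9% of all genes were. This was Bglap2, which encodes osteocalcin. It stood at 1500.0 and 1508 scaled TPM, inside the other libraries' range of 0.66 to 2753 (median 757). Its difference was 1.75 ± 0.62 on the log2 scale (SE, adjusted p = 0.0454). Bglap2 is uncertain because Bglap and Bglap3 are near-identical copies, and the sum of all 3 differed by 1.24. Its call was lost without the filter on low values (adjusted p = 0.0748), on deposited TPM (0.0961), with protein-coding scaling (0.0584), with single-library strains in the reference (0.0586) and without either CC037 library (0.193 and 0.195). The median over the list was 0.37, against -0.03 over all genes tested. None of 10 osteocyte genes was called by limma, with 1 higher at an unadjusted p under 0.05. That limit was passed by 4568 of all 15760 genes tested, in either direction. Sost, the Wnt antagonist made by osteocytes, stood at 26.8 and 31.5 scaled TPM against a mean of 19.3 (difference 1.84 ± 0.80, adjusted p = 0.119).

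The macrophage genes were low in CC037. Of 24 tested, 20 were called lower (background 7.87% of all genes) and none higher, and all 24 differences were negative, with a median of -1.34 against -0.03 over all genes. Summed over the list, the level was 253.8 scaled TPM in the first CC037 library and 138.5 in the second. The other libraries ranged from 52.8 to 7237, with a median of 607, so both CC037 libraries lay within the range. By strain mean CC037 was 5th from the bottom, above CC005, CC041, CC002 and CC059. In such bulk samples fewer macrophages and less RNA per macrophage cannot be told apart.

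Among the members, the phagocyte lysozyme Lyz2 stood at 107.7 and 63.6 scaled TPM against a mean of 518 (difference -1.78 ± 0.45, adjusted p = 0.00395). The endotoxin co-receptor Cd14 stood at 1.76 and 1.27 against 9.42 (-1.76 ± 0.36, adjusted p = 0.000263). The complement subunit C1qb stood at 8.72 and 3.51 against 40.2 (-1.80 ± 0.47, adjusted p = 0.00448). The growth factor receptor Csf1r stood at 3.37 and 2.32 against 12.4 (-1.24 ± 0.39, adjusted p = 0.0213). The second CC037 library was lower than the first in each of these 4 genes. Genes off the list but also typical of macrophages fell as well. The chemokine Pf4 stood at 4.45 and 0.811 against 34.7 (-2.83 ± 0.46, adjusted p = 4.4e-06), and the scavenger receptor Stab1 at 2.20 and 1.52 against 22.8 (-2.35 ± 0.52, adjusted p = 0.00073). The members not called were Cd163, Folr2, Ptprc and Fcgr1, with differences of -0.24, -0.68, -0.84 and -0.84. The count fell to 3 without replicate 2, the lower library, and to 15 without replicate 1. Lyz2, C1qb and Mrc1 were among the members that lost their call without replicate 2, while Cd14 and F13a1 kept theirs.

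F13a1, which encodes the catalytic subunit of the clot-stabilising factor XIII and is made by macrophages, went beyond the rest of the list. It stood at 0.555 and 0.327 scaled TPM in CC037, below every other library (lowest 0.782, median 16.1, highest 291). The difference was -4.58 ± 0.59 on the log2 scale, or 23.9-fold (adjusted p = 2.75e-08). The next lowest strains were CC041 at 2.85 and CC005 at 3.67 scaled TPM, both of which had less of the summed macrophage list than CC037. Set against the median of the other macrophage genes in the same strain (log2 scale), F13a1 was at -2.13 in CC037. It was at 0.91 on average in the other strains, with CC019 the next lowest at -0.41. By that measure Mrc1, the mannose receptor, was the 4th lowest of the strains (-0.35 against 0.38). F13a1 values are therefore low in CC037 also relative to its other macrophage genes, which as a comparison chosen after its level was seen carries no test. None of the 8 tested genes nearest to F13a1 along the chromosome was called, where 13.9% of all genes were.

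Il34, a ligand of Csf1r, was low as well. It stood at 2.12 and 2.05 scaled TPM, below all other libraries (lowest 2.47, median 4.16, highest 16.6), a difference of -1.004 ± 0.30 (adjusted p = 0.0147). Without replicate 1 or replicate 2 the adjusted p for Il34 was 0.1 and 0.117. The other ligand, Csf1, stood at 33.3 and 32.4 against a mean of 39.7 and was not called (-0.25 ± 0.13, adjusted p = 0.234). Of 7 osteoclast genes, 2 were called lower (background 7.87%), Mmp9 (-1.38) and the receptor of the osteoclast factor RANKL, Tnfrsf11a (-0.79). Both lost their call without replicate 2, and Mmp9 also without replicate 1. Enzymes of mature osteoclasts were not called: the protease Ctsk stood at 198.8 and 207.4 scaled TPM against 205.5 and the acid phosphatase Acp5 at 5.69 and 6.38 against 6.74.

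**Figure D2:**
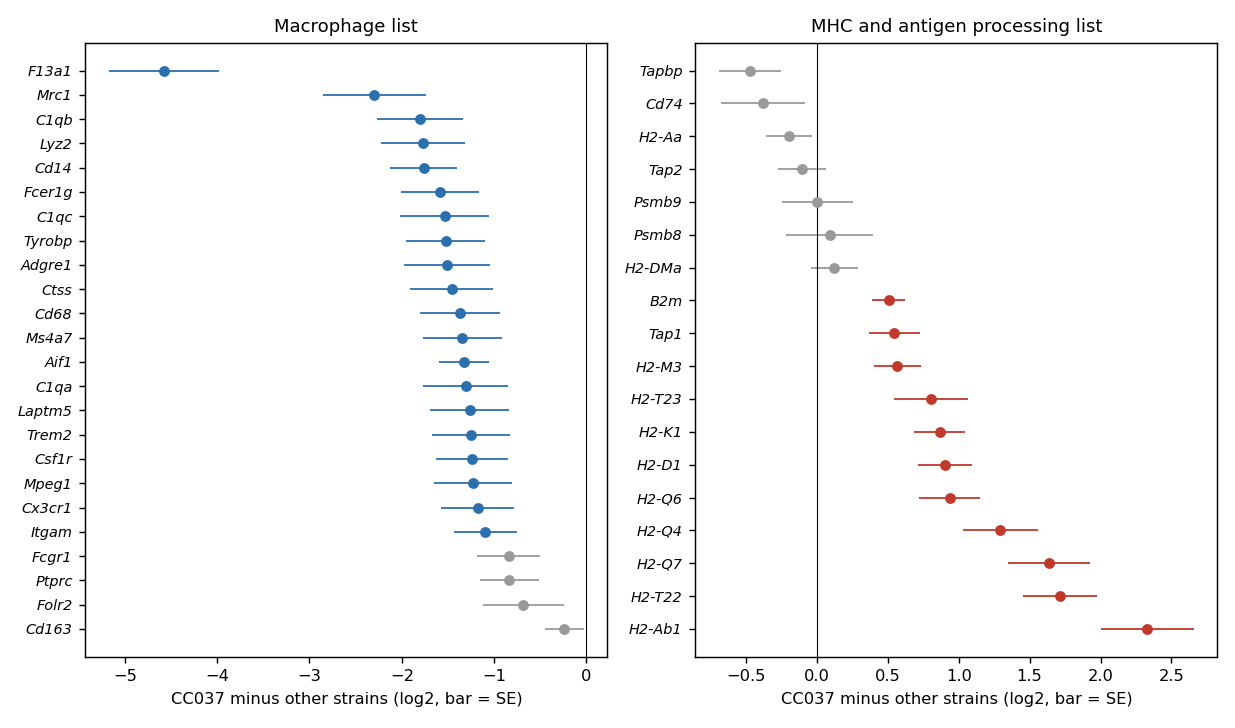
Difference of CC037 from the other strains (log2, bars are SE) for each tested gene of the macrophage list (left) and of the MHC and antigen processing list (right). Blue marks genes called lower, red higher and grey not called. All 24 macrophage genes lie left of 0 with F13a1 apart from the rest, while 11 of 18 MHC genes were called higher.

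Inflammatory signals of the culture were at the low end too. Of 27 chemokine and inflammation genes 5 were called lower (background 7.87%) and none higher, with a median of -0.72. Their summed level of 96.4 and 93.9 scaled TPM gave CC037 the lowest mean of the 39 strains, although single other libraries reached 83.5. The monocyte attractant Ccl2 stood at 1.54 and 1.50 against a library median of 6.82 (-1.99 ± 0.71, adjusted p = 0.0477). Its mean over the other strains was 18.2, with a CC051 library at 504.4. Ccl12 stood at 0.499 and 0.374 against a library median of 1.87 and a mean of 7.61 (-1.97 ± 0.57, adjusted p = 0.0113). Cxcl14 stood at 10.7 and 11.9, just below the lowest other library at 11.93 (median 28.2). Cxcl16 and Tnf, which encodes tumour necrosis factor, differed by -0.94 and -0.80. Of 14 complement genes 2 were called lower (background 7.87%), Cfp (-1.39) and C3ar1 (-0.97), and both are made by macrophages. Without replicate 2 both lost their call (adjusted p = 0.0756 and 0.507), and C3ar1 also without the filter (0.0613) and without CC030 and CC051 (0.0522), an alternative chosen after seeing the data. The part of the low macrophage genes in these differences was not tested. Only 1 of the chemokine calls was made without replicate 1, none without replicate 2, and 3 without the filter on low values.

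MHC and interferon genes moved the other way. Of 18 MHC and antigen processing genes, 11 were called higher (background 6.07%) and none lower, with a median of 0.55. Many of these genes are neighbours within the MHC, so their calls are not separate observations. The part of a shared locus in this count was not tested. H2-K1, a classical class I heavy chain, stood at 114.8 and 112.6 scaled TPM against a mean of 69.7 (0.87 ± 0.18, adjusted p = 0.000334), and H2-D1 at 104.3 and 93.8 against 67.3 (0.90 ± 0.19, adjusted p = 0.000443). The shared light chain B2m stood at 710.1 and 617 against 478 (0.51 ± 0.12, adjusted p = 0.00116), 2nd highest of the strains after CC006. Tap1, a peptide transporter subunit, differed by 0.54 ± 0.18 (adjusted p = 0.0306), while Tap2, Psmb8 and Psmb9 were not called. Nonclassical class I genes were among the largest differences, with H2-T22 at 1.72, H2-Q7 at 1.64 and H2-Q4 at 1.29. Each of these genes had other libraries as high as those of CC037. H2-T22 is uncertain, since its relative H2-T10 was called lower (-1.36). Of the transcripts that could not be matched to a gene, the one most opposed to H2-T22 had r = -0.78 across libraries. It was picked for that correlation, without a sequence match, and its sum with H2-T22 still differed by 1.25. Nlrc5, the activator of class I genes, was not on the list and was chosen for that role. It stood at 1.61 and 1.24 scaled TPM against 0.540 (0.96 ± 0.17, adjusted p = 2.26e-05).

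The class II chain H2-Ab1 had the largest difference of the list. It stood at 8.56 and 7.85 scaled TPM against a library median of 0.584, with a difference of 2.33 ± 0.33 (adjusted p = 2.22e-07). The other libraries reached from 0 to 13.98, and CC032, CC041 and CC040 had higher means (13.8, 9.88 and 8.55). Its partner chain H2-Aa stood at only 0.125 and 0.0654 against a mean of 0.208, and the invariant chain Cd74 at 0.433 and 0.797 against 1.08. Neither was called (adjusted p = 0.481 and 0.444), so H2-Ab1 stood alone among these class II genes. On deposited TPM 6 of the MHC genes were called higher, and without 1 CC037 library 7 or 8.

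Of 32 interferon response genes, 8 were called higher (background 6.07%) and none lower, and the median was 0.65. Bst2 (tetherin), which holds budding virus at the cell surface, stood at 85.5 and 97.8 against 46.4 (1.14 ± 0.29, adjusted p = 0.00422). Ifi44 stood at 11.3 and 15.1 against 3.55 (2.04 ± 0.41, adjusted p = 0.000182), and Usp18, a brake on the interferon receptor, at 8.29 and 12.4 against 4.46 (1.48 ± 0.43, adjusted p = 0.0125). The ubiquitin-like Isg15 stood at 21.3 and 28.3 against 13.3 (1.22 ± 0.44, adjusted p = 0.0492). The call of Isg15 was lost in 11 of 15 alternatives, with an adjusted p between 0.0501 and 0.307. The GTPases Irgm1 and Igtp and the DNA sensor relative Ifi202b were also called higher. Ifi202b, which is also among the genes known to vary among founder strains, was only 8th highest of the strains. It stood at 49.3 and 55.9 scaled TPM against a library median of 25.0, with 9 other libraries at 0 and the highest at 104.8. Other well known members were not called: Ifit1 differed by 0.82 (adjusted p = 0.3), Irf7 by 0.87 (0.139) and Mx1 by -0.03 (0.971). Irf1, which interferon gamma induces, was not called either (-0.29, adjusted p = 0.329). The second library was higher than the first in Bst2, Ifi44, Usp18, Isg15, Irgm1, Igtp and Ifi202b. The count was 5 without replicate 1, 2 without replicate 2, 2 on deposited TPM, 5 with protein-coding scaling and 5 without the filter.

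Several interferon-linked genes were high in few strains. Gbp2b, a guanylate-binding protein, stood at 3.33 and 4.15 scaled TPM where the median of the other libraries was 0.0674, with CC038 and CC015 higher still (5.999 and 5.37). Apol9a stood at 7.23 and 9.75 against 2.29, the highest strain mean (1.87 ± 0.34, adjusted p = 4.96e-05). A cluster of Trim genes, relatives of the viral restriction factor Trim5, held the clearest case. Trim12a stood at 5.42 and 6.31 against a library median of 0.169, a difference of 2.99 ± 0.13 (adjusted p = 2.85e-27). CC074 and CC013 were also high, with means of 5.68 and 4.20. Trim30d stood at 3.54 and 3.86, above every other library (median 0.0378, highest 2.97), and differed by 2.41 ± 0.17 (adjusted p = 1.04e-17). CC055 and CC074 came next with means of 2.89 and 2.73. Of the 8 tested genes nearest to Trim12a, Trim34a (1.25) and Trim12c (0.82) were higher (background 6.07%) and Trim34b was lower (-0.58, background 7.87%). Trim34a and Trim34b are near-identical and ran opposite to each other, so their split is uncertain, and their sum differed by 0.88.

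Promoters of 5 genes called higher are shown because they hold letters that interferon-activated factors can bind. The motif searched on both strands was GAAA, any 2 bases (NN) and GAAA again, the core of the interferon-stimulated response element, within the 250 bases before the start of each gene in RefSeq (GRCm38.p6, not the build the authors aligned to). It occurs in 2.98% of all 32851 promoter entries and in 3.46% of 27025 genes. Of the 8 interferon response genes called higher 6 had an entry, and 4 of these held the motif (Isg15, Bst2, Igtp and Irgm1). Of 16 not called with an entry, 10 held it. Of 10 called MHC genes with an entry 3 held it (H2-T22, H2-T23 and B2m), and of 5 not called none did. The 250 bases of each follow, 5′ to 3′ toward the gene, with the motif in capitals, read as GAAA and GAAA on the gene's strand or as TTTC and TTTC where it lies on the other. Isg15, Bst2 and Irgm1 stand for the interferon genes, H2-T22 for class I and Trim30d for the Trim cluster.
Isg15, chr4:156200819-156201068, minus strand: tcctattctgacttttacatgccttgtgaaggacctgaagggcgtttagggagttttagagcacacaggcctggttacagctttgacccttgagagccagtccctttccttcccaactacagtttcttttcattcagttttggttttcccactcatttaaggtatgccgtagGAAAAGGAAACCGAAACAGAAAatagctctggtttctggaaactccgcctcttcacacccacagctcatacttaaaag
Bst2, chr8:71537473-71537722, minus strand: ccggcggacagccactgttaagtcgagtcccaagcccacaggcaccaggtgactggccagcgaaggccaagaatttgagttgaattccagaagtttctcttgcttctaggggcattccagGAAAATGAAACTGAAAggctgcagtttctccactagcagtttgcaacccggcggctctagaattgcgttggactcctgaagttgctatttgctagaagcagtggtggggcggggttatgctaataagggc
Irgm1, chr11:48871421-48871670, minus strand: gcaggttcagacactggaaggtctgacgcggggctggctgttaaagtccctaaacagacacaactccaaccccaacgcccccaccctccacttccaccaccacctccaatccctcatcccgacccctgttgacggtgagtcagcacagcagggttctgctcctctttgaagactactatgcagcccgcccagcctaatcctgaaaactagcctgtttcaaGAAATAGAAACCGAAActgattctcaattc
H2-T22, chr17:36042743-36042992, minus strand: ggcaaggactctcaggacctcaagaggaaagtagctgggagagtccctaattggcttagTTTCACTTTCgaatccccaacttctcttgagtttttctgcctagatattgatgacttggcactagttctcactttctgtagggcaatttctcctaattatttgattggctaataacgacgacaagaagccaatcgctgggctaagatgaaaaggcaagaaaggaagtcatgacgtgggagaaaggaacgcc
Trim30d, chr7:104507850-104508099, minus strand: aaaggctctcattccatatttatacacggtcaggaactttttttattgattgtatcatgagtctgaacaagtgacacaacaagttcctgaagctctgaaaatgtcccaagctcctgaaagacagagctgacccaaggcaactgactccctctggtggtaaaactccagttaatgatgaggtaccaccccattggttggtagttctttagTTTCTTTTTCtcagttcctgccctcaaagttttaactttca
Isg15 holds 3 overlapping copies, Bst2 and Irgm1 2 overlapping copies each, and H2-T22 and Trim30d 1 copy each. A match is a description of these letters in a reference genome, and CC037 may carry other letters.

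Cryab was among the lowest genes of the strain. It encodes alpha-B-crystallin, a small heat shock protein that keeps damaged proteins soluble. Cryab stood at 0.0891 and 0.0934 scaled TPM, below every other library (lowest 0.134, median 19.5, highest 48.2). The difference was -4.63 ± 0.27, or 24.8-fold (adjusted p = 8.41e-21). CC019 had a mean of 0.169, CC065 of 0.911 and CC028 of 1.23. Its neighbour Hspb2, another small heat shock gene, stood at 0.129 and 0.0452 against a median of 3.31 (-2.51 ± 0.28, adjusted p = 6.1e-10). The same 3 strains were low there, with means of 0.0407 in CC019, 0.0452 in CC065 and 0.152 in CC028. Of the other genes nearest to Cryab only 2310030G06Rik was called (-0.63, background 13.9% in either direction), and Dlat, Fdxacb1 and Alg9 were not. Hspb1, a small heat shock gene elsewhere, stood at 5.38 and 5.84 against 8.03 and was not called.

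**Figure D3:**
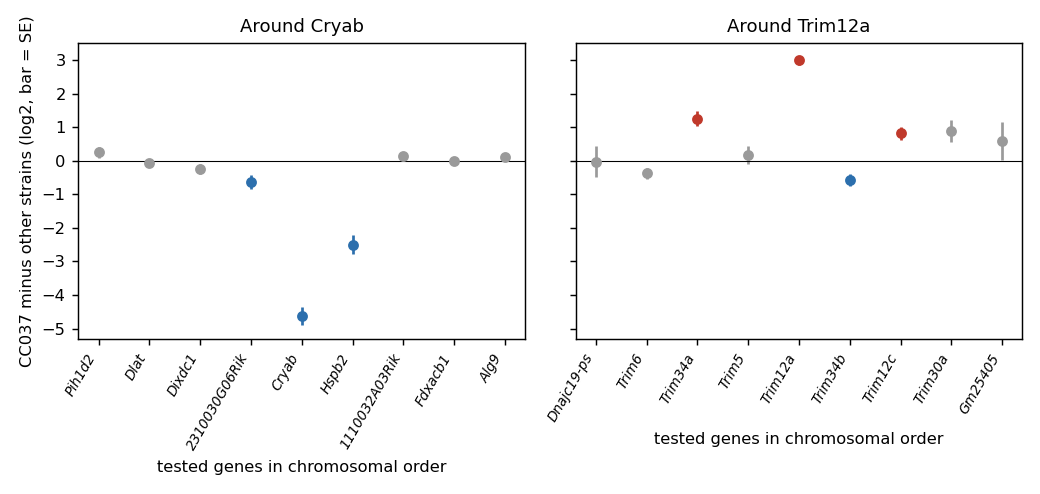
Difference of CC037 from the other strains (log2, bars are SE) for Cryab and Trim12a and the 4 tested genes on either side of each, in chromosomal order with even spacing. Red marks genes called higher, blue lower and grey not called. Cryab and Hspb2 lie far below their neighbours, and Trim12a lies above its own.

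Cwc22, a splicing factor that loads the exon junction complex, stood at 260.2 and 275 scaled TPM against a library median of 8.63. The difference was 4.49 ± 0.16 (adjusted p = 1.47e-31). CC039, CC016 and CC042 had means of 272.0, 271.9 and 268.9, and these 3 were the only other strains that came within 2-fold of the CC037 level. Cwc22 has 7 near-identical copies. Of these Gm13691, Gm13693, Gm13694, Gm13696, Gm13697 and Gm13698 were listed at 2.12 and 2.20 each, and the summed family differed by 4.55. Il1f9, a cytokine of the interleukin 1 family, split the strains in the same way. It stood at 3.07 and 2.89 against a median of 0.0605 (2.43 ± 0.09, adjusted p = 1.22e-29), with CC039 at 2.68, CC042 at 2.57 and CC016 at 2.51. Of its 8 nearest tested neighbours, Psd4 (-0.80) and Arrdc1 (-0.46) were called lower and none higher, where 13.9% of all genes were called.

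Sema3d, a secreted guidance factor, stood at 36.7 and 35.9 scaled TPM, above every other library (median 13.8, highest 28.9), with a difference of 1.38 ± 0.21 (adjusted p = 1.55e-06). Its neighbour Sema3a, a guidance factor that also acts on bone cells, was lower at 6.15 and 6.87 against 14.3 (-0.99 ± 0.24, adjusted p = 0.00252). Crot (-0.45) and Tmem243 (-0.84) nearby were lower too. Ly6c1, a surface antigen gene, was listed at 0 in both CC037 libraries and in all libraries of CC019 and CC023, where the median of the other libraries was 7.44. Levels were also low in CC013 (0.0197), CC045 (0.0601), CC055 (0.192) and the CC011 library (0.0620). Ly6c2 is a near-identical copy, and the sum of both differed by -3.62. Beside Ly6c1, Ly6a (Sca-1), a marker of progenitor cells, stood at 23.7 and 23.6 against 66.5 (-1.10 ± 0.39, adjusted p = 0.0428). Ly6e stood at 7.43 and 7.64 against 18.6 (-0.91 ± 0.22). Ly6k went the other way, at 3.19 and 4.50 against a median of 0.518 (1.69 ± 0.27).

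**Figure D4:**
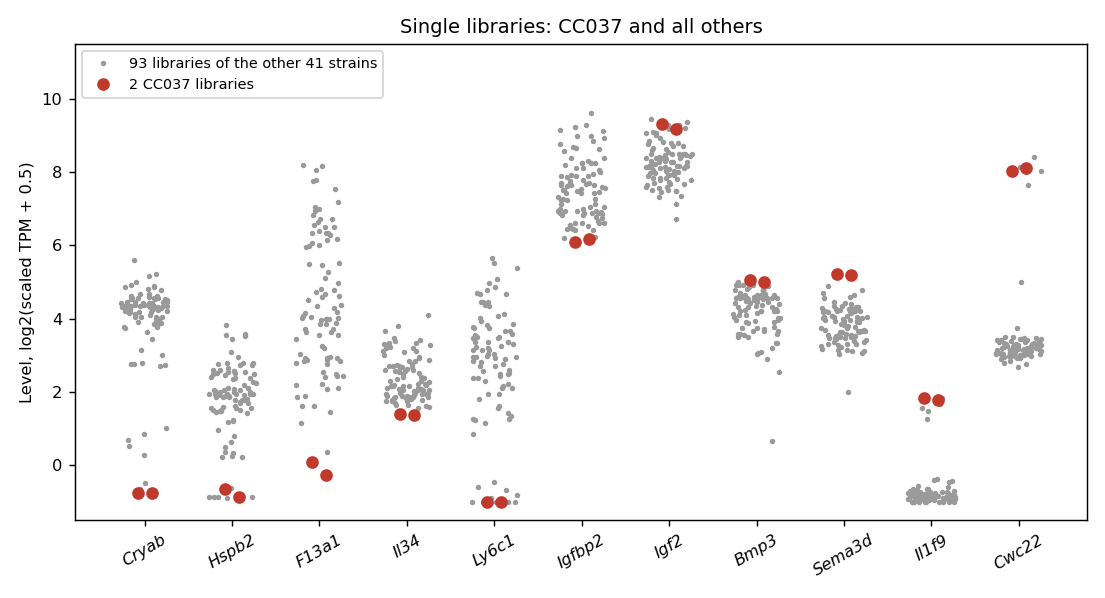
Level of 11 genes in single libraries (vertical axis, log2 of scaled TPM + 0.5). Red points are the 2 CC037 libraries and grey points the 93 libraries of other strains, spread sideways for clarity. Cryab, F13a1, Il34 and Igfbp2 lie below, and Sema3d above, all grey points, whereas in Cwc22 and Il1f9 a few libraries of other strains share the CC037 level.

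Of 27 genes of insulin-like, fibroblast, hedgehog and parathyroid hormone signalling 1 was called higher and 3 lower, a share near the background (6.07% and 7.87% of all genes), so single members are described. Igf2, the fetal insulin-like growth factor, stood at 633 and 580.0 scaled TPM, the highest strain mean, against 323 (1.00 ± 0.22, adjusted p = 0.000687). Single libraries of other strains reached 693. H19, the noncoding neighbour expressed from the opposite parental copy, stood at 1707 and 1842 against 1465 and was not called (0.33 ± 0.20, adjusted p = 0.297). The related ligand Igf1 (-0.28) and the Igf2-clearing receptor Igf2r (0.17) were not called. The binding protein Igfbp2 stood at 68.2 and 72.1, below every other library (lowest 72.7, median 180.2, highest 779), a difference of -1.37 ± 0.28 (adjusted p = 0.000263). Igfbp3 stood at 12.4 and 16.5 against 37.9 (-1.19 ± 0.39, adjusted p = 0.0283). With Fgfrl1, a decoy-like receptor of fibroblast growth factors (-0.57), these were the 4 calls of the list. Igf2 and Igfbp2 kept their call without either CC037 library, and Igfbp3 and Fgfrl1 did not.

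Of 39 BMP and TGF-beta genes 3 were called lower and 1 higher, no more than the background of 7.87% and 6.07%. Bmp3, a bone-matrix ligand that opposes other bone morphogenetic proteins, had the highest strain mean, at 32.7 and 31.2 against 19.2 (0.84 ± 0.28, adjusted p = 0.0298), though a CC042 library stood at 32.95. Its call was lost on deposited TPM (adjusted p = 0.124), with protein-coding scaling (0.0535) and without either CC037 library (0.178 and 0.137). Ltbp2 (-1.81) and Ltbp3 (-0.80), matrix proteins of the latent TGF-beta binding family, and Acvr1 (-0.51), a BMP receptor, were lower, of which only Ltbp2 was called without either CC037 library. Of 32 Wnt genes only Wnt5a was called, a share below the background of 13.9% in either direction. Wnt5a stood at 3.49 and 3.27 against 6.82 (-0.86 ± 0.20, adjusted p = 0.00141).

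Of 32 collagen and matrix genes 7 were called lower (background 7.87%) and 1 higher (6.07%), with a median of -0.32. Col14a1, a collagen on the fibril surface, stood at 1.85 and 1.40 against 10.3 (-1.89 ± 0.52, adjusted p = 0.00716), and Col15a1 at 0.500 and 0.511 against 3.87 (-1.78 ± 0.48, adjusted p = 0.00622). The 3 chains of collagen VI, Col6a1, Col6a2 and Col6a3, differed by -0.59, -0.65 and -0.59, Col16a1 by -0.70 and fibulin-1 (Fbln1) by -0.98. Col5a2, a chain of the fibril-nucleating collagen V, was higher at 995 and 1080 against 813 (0.37 ± 0.10, adjusted p = 0.00893). Col1a1, the main bone collagen, stood at 1188 and 1417 against 2403 and was not called (-0.76 ± 0.36, adjusted p = 0.17). Against the 7 strains whose title numbers were all 440 or more, 1 of the matrix genes was lower, none was without replicate 1 and 3 were without replicate 2. On deposited TPM the count was 12. Emilin2, a matrix glycoprotein off the list, stood at 3.11 and 2.98, below every other library (lowest 3.49, median 10.3), with a difference of -1.81 ± 0.39 (adjusted p = 0.000448).

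Of 20 cartilage genes 4 were called lower (background 7.87%), 16 were not called and the median was -0.35. Col2a1, the main cartilage collagen, stood at 3.00 and 1.74 against 10.3 (-1.66 ± 0.45, adjusted p = 0.0063), and Cnmd (chondromodulin) at 0.103 and 0.0591 against 2.79 (-1.91 ± 0.54, adjusted p = 0.00924). Col9a3 (-1.26) and Sox9 (-0.65), the master factor of cartilage, were the others, and CC037 had the lowest strain mean of Sox9 and Cnmd. No chondrocyte call was left without replicate 2, where 0 of the 4 passed, and 3 passed without replicate 1. Among 13 suture and tendon genes Scx, a tendon transcription factor, was higher (0.68) and Thbs4 lower (-0.86), near the background (6.07% and 7.87%). Each lost its call in 4 of 15 alternatives, among them those without either CC037 library. Among 13 smooth muscle and pericyte genes Myh11 (-0.81) and Pdgfrb (-0.50) were lower (background 7.87%). Myh11 lost its call in 3 and Pdgfrb in 6 of 15 alternatives, with adjusted p up to 0.189 and 0.403, again including those without either CC037 library. Of 4 tested genes of other blood cells Cd34 was lower (-1.15, background 7.87%), a call lost without either CC037 library. Lists of adipocyte (11), skeletal muscle (7), endothelial (6), erythroid (2) and hypoxia and glycolysis (19) genes had no call by limma. At an unadjusted p under 0.05 were 0, 1, 2, 0 and 2 of them, where 4568 of all 15760 genes tested were. None of 20 proliferation genes was called and 3 had an unadjusted p under 0.05, though 19 of them had negative differences and the median was -0.65. Mki67, a marker of dividing cells, stood at 1.33 and 1.08 against 3.81, the lowest strain mean (-1.05 ± 0.52, adjusted p = 0.188).

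**Figure D5:**
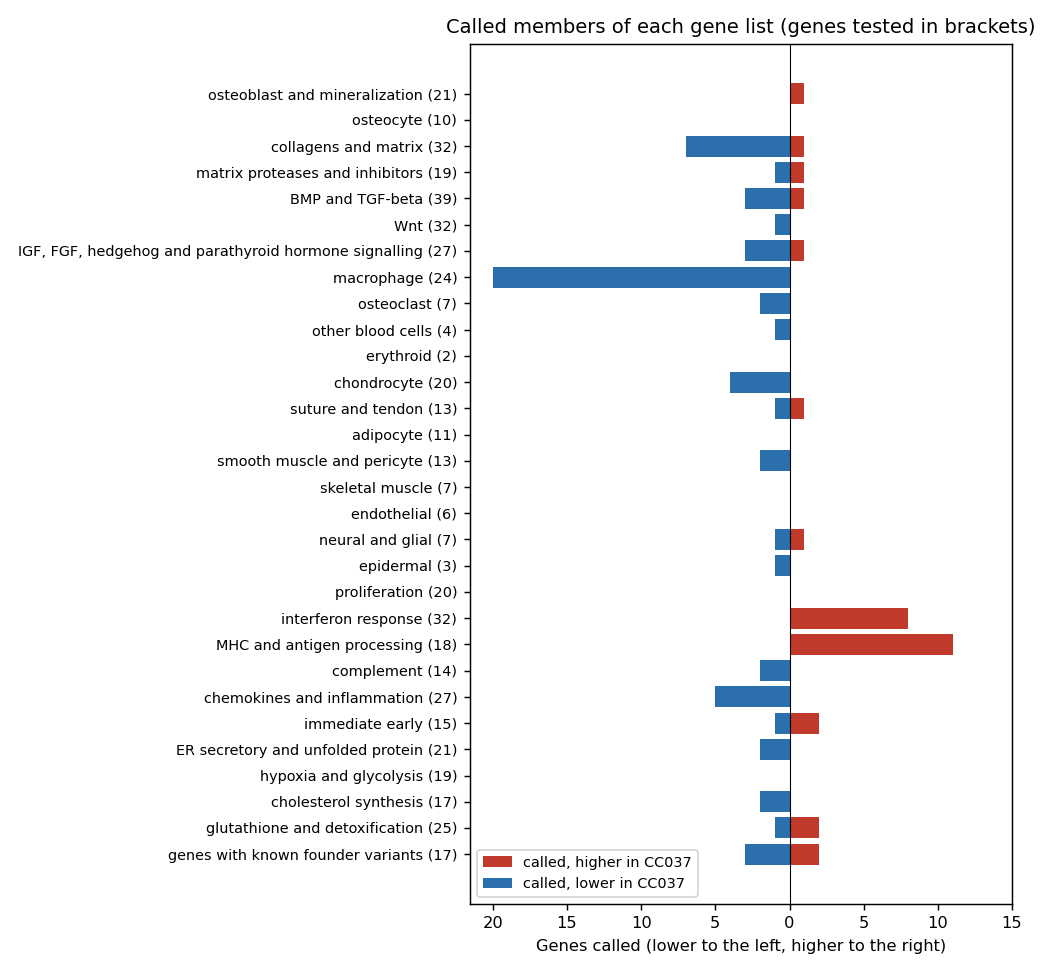
Number of genes called lower (blue, left) and higher (red, right) in CC037 for each gene list, with the number of tested genes in brackets. The macrophage list has 20 lower calls, the MHC list 11 higher and the interferon list 8 higher, and the other lists have at most 7 in either direction.

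Some of the largest differences lay in genes whose reads can be divided among copies, and these are uncertain. Rpl12, a ribosomal protein gene, stood at 968 and 862 scaled TPM against 155, and its copies Gm9396 and Gm10275 differed by 7.76 and -7.82, but the family summed to a difference of -0.19. Rps2 differed by -3.69 and its copy Gm6139 by 8.49, with a family sum of 0.24. Gm6969 was listed near 0, while the sum with its source gene Cox7a2l differed by 0.01. Tpm3-rs7 differed by -2.98 and the sum with Tpm3 by -0.03. In the families of Rpl12, Rps2, Gm6969 and Tpm3-rs7 the sum moved far less than the members. Atp5g2, for which no near-identical copy was found, differed by -3.63. Summed with the unmatched transcript that ran most opposite to it (r = -0.85), it differed by 0.15. That transcript was picked for its correlation, without a sequence match, and whether it shares reads with Atp5g2 was not tested.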

How the data were processed

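Per the labels, stranded libraries of RNAs above 200 nt were made from 200 ng of RNA after removal of ribosomal RNA. The authors deposited transcript values whose 96 columns each sum to 1000000, so they are TPM, although the table is named for counts. Per the submitters' processing notes the build was mm9 and the aligner Bowtie. The quantification tool, and how reads with strain variants were treated, are not given in the sources used here. Of 94545 transcripts, 91225 were matched to genes by identifier (GENCODE vM21) and summed to 37945 genes. They held a median of 98.2% of the TPM. The sample sequenced 2 times was averaged as 1 library, giving 95. Libraries were scaled by a trimmed mean of log ratios (genes with a mean of 1 TPM or more, 30% trimmed by ratio and 5% by level). The scaling factors were 0.791 and 0.873 in CC037 and 0.773 to 1.27 over all. Genes with 0.5 TPM or more in 2 or more libraries were tested with limma 3.58.1 in R 4.3.3 (trend on level, log2 of scaled TPM + 0.5, 1 mean per strain, 92 libraries of 39 strains, 53 residual degrees of freedom). P-values were adjusted by Benjamini-Hochberg over all strains and genes at 0.05. The method was tested on simulated data with the spread within strains and set changes in CC037, but with no differences among the other strains. That test therefore does not cover calls where strain means differ, as they do here. Near-identical copies were found with blastn 2.17.0 (95% identity over 50% of the length and 200 nt or more). Alternatives were 2 pseudocounts, 2 filters, 3 scalings, 3 references, each CC037 library left out, the variance trend, the adjustment and unmatched transcripts. The strain, its members and the gene lists were chosen with earlier results of these data known. Named genes are protein-coding called genes at 1 scaled TPM or more with the 12 largest differences in each direction, the 8 smallest p-values of any kind, the 6 widest gaps to all other libraries in each direction, and the 2 to 4 largest called members per list. Other genes, such as neighbours, partners and uncalled members, were added after their values were seen. Some items are not reported here.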

Additional observations from a re-analysis of the deposited data

How the results depend on the processing

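No paired analysis was possible because the sample labels name no litter or batch that would link samples of different strains. Leaving out either CC037 library, where the remaining one is assumed to vary like the other strains, gave 796 to 899 calls in place of 2198 (371 to 487 higher, 412 to 425 lower). The CC037 value then lay above all other libraries in 0.508% to 1.05% of genes and below in 0.888% to 1.39%. List counts were 3 to 15 for macrophage, 7 to 8 for MHC, 2 to 5 for interferon, 0 to 3 for collagen, 0 to 1 for chemokine and 0 to 3 for chondrocyte genes. On deposited TPM there were 244 higher and 2966 lower calls, 0.0254% of genes above and 1.12% below all other libraries, 6 MHC, 2 interferon and 12 collagen genes. With protein-coding scaling there were 565 higher and 1917 lower calls, 0.0825% of genes above and 0.476% below, and 5 interferon genes. Without the filter 5 interferon and 3 chemokine genes were called, and 0.116% of genes lay above and 0.148% below all other libraries, over 28412 genes tested. Against the 7 strains with title numbers of 440 or more, 1 collagen gene was lower, and 3 named genes changed sign and lost their call: Glo1 (0.012), Ier2 (-0.027) and Egr2 (-0.443). Over 1420 comparisons of the 95 named genes with an alternative, 1272 kept direction and call, 145 lost the call only and 3 reversed. Without CC030 and CC051, an alternative chosen after seeing the data, 2331 genes were called, with 19 macrophage genes lower. The cause of these shifts was not tested. With 2 CC037 libraries and no counts, depth could not be judged.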

Other observations

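Genes known to vary among mouse founder strains gave 5 calls of 17, where 13.9% of all genes were called. Nnt, the mitochondrial transhydrogenase that is partly deleted in a common laboratory strain, stood at 6.62 and 6.74 scaled TPM in CC037, against a mean of 13.4 (-0.89 ± 0.12, limma adjusted p = 5.01e-08), and other libraries went down to 4.73. Glo1, an enzyme of methylglyoxal removal, differed by -0.32, but by 0.012 and without a call against the 7 strains with title numbers of 440 or more, and its neighbour Btbd9 by -0.30. The cytochrome P450 gene Cyp4f16 differed by 1.12, with the highest strain mean. It stood at 6.37 and 4.86 scaled TPM against a library median of 4.01, with 5 other libraries at 0 and the highest at 6.00. Cyp4f16 is uncertain because Cyp4f37 is a near-identical copy, and the sum of both differed by 1.11.

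Other genes lay outside the range of all other libraries. Gpat2, a glycerol phosphate acyltransferase, stood at 1.02 in both against a highest other value of 0.878 (1.17 ± 0.14, adjusted p = 2e-09), and the meiotic gene Mei4 at 1.08 and 0.927 against 0.752. Lrrcc1, a centrosome protein, stood at 14.8 and 14.9 against 14.05. Below all others were the transcription factor Klf13 at 3.49 and 3.34 (lowest other 4.003), the palmitoyltransferase Zdhhc7 at 3.87 and 3.86 (4.43) and the adhesion protein Tns1 at 1.17 and 1.00 (1.31). Other genes were low in CC037 but within the range of the other libraries. The zinc finger gene Zfp738 was listed at 0.124 and near 0 against a median of 3.24, and CC004 was also low at 0.0903. Zfp990, whose family holds close relatives, stood at 0.0226 and 0.0118 against a median of 2.66. Egfl6, an X-linked matrix gene, stood at 1.08 and 0.737 against a mean of 14.9 (-2.59 ± 0.81, adjusted p = 0.0218). Both CC037 libraries had high Xist and low Ddx3y, as had 41 of the 93 other libraries, and the part of this in the difference was not tested.

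Smaller lists gave few calls, where 6.07% of all genes were called higher and 7.87% lower, so single members are described. Among 15 immediate early genes Ier2 (0.67) and Egr2 (0.51) were higher and Ier3 lower (-1.16). Among 21 genes of the secretory pathway Calr (-0.55) and Creb3l2 (-0.41) were lower, Stard4 (-0.66), which carries cholesterol, was lower, and among 25 of detoxification Ephx1 (0.59) and Cyp4f16 were higher and Nqo1 lower (-0.57). Of 19 matrix protease genes Adamts12 was higher (0.46) and Mmp9 lower. Of 7 neural genes Map2 was higher (0.63) and Stmn2 lower (-1.18), and of 3 epidermal genes Trp63 was lower (-0.31). Ier3, Egr2, Calr, Creb3l2, Stard4, Nqo1, Adamts12, Map2, Trp63 and Egfl6 lost their call without either CC037 library, Ephx1 without replicate 1 and Stmn2 without replicate 2. On deposited TPM Ephx1 and Ier2 lost theirs (adjusted p = 0.199 and 0.0809). Against the 7 strains with title numbers of 440 or more Ephx1 lost its call (0.206), and Ier2 (-0.027) and Egr2 (-0.443) changed sign.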
